A study of Mus musculus with 8 samples.

Results

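The genes described here are the TAM receptors and their partners in efferocytosis, the uptake of dying cells. The 9 members are Mertk, Axl and Tyro3 (receptors), Gas6 and Pros1 (their ligands), Cd36, Stab1 and Timd4 (other uptake receptors) and Mfge8 (a bridging protein). They were chosen out of 49939 annotated genes with earlier results of these data in view. The members were chosen by whether an ATAC-seq peak lay within 10 kb of the gene body and by how that peak ranked on −log10 p among all peaks of the same library (its percentile, high for a strong peak). These values carry no test here, because the choice of genes rests on them. Of 40784 merged regions in the 8 libraries, 28 lay within 10 kb of a member, and they held 101 of 168859 peaks.

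ATAC-seq marks open chromatin by the insertion of adapters with the transposase Tn5. It was carried out on BV2, an immortalised mouse microglial line, grown alone (monoculture) or seeded onto GL261 mouse glioma cells at 1 BV2 cell to 2 GL261 cells (co-culture). Each culture was then kept for 16 h either in normoxia at 21% oxygen or in hypoxia below 0.1% oxygen, which gives 4 groups with 2 biological replicates each. All libraries, controls included, came from formaldehyde-fixed cells, with 50000 cells per reaction, and BV2 was the only microglial line used. The protocol names a sort for the leukocyte marker CD45 or for GFP, without saying which library had which. A peak near a gene is a measure of accessibility, and no transcript level was used here.

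TAM receptors are receptor tyrosine kinases. Their ligands, Gas6 and protein S (the product of Pros1), bind phosphatidylserine on dying cells and bridge it to the receptor. Signalling through these receptors drives engulfment and dampens innate immune responses, and Mertk and Axl are the TAM receptors best known in microglia. Mfge8 bridges phosphatidylserine to integrins, Timd4 and Stab1 bind phosphatidylserine directly, and Cd36 is a scavenger receptor that also takes up fatty acids.

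The promoters of 6 members are shown to set promoters with a peak in some libraries beside promoters with a peak in none. Mertk and Mfge8 had a peak at the promoter in 7 libraries, Pros1 in 2, Axl in 1, and Tyro3 and Timd4 in none. Each line gives the 250 bases before the annotated start site, from RefSeq (GRCm38.p6), 5′ to 3′ on the gene's strand. All 9 members had an entry. Capitals mark the GC box GGGCGG, the hypoxia-response core GCGTG and GAGGAA, the core of PU.1 sites, each on either strand.
Mertk, + strand, chr2:128698665-128698914: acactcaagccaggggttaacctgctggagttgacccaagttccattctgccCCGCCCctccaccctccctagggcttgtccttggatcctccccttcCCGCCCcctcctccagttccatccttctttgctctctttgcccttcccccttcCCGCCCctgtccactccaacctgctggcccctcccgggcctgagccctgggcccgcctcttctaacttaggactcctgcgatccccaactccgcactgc
Mfge8, - strand, chr7:79149061-79149310: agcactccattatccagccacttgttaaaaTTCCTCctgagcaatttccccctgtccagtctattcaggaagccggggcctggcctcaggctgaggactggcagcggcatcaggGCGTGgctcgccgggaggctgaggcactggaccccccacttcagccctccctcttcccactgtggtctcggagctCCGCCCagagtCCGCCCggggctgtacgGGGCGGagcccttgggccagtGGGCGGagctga
Axl, - strand, chr7:25788734-25788983: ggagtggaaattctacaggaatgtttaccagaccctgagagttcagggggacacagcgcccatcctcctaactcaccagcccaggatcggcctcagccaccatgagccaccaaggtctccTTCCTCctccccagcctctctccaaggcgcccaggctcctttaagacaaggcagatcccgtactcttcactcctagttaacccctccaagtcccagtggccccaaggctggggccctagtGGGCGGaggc
Pros1, + strand, chr16:62854057-62854306: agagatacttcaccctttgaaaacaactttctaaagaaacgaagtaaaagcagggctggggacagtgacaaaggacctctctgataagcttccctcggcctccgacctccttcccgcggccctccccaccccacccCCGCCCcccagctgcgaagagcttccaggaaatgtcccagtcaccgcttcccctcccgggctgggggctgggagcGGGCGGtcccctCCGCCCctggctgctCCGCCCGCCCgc
Tyro3, + strand, chr2:119799264-119799513: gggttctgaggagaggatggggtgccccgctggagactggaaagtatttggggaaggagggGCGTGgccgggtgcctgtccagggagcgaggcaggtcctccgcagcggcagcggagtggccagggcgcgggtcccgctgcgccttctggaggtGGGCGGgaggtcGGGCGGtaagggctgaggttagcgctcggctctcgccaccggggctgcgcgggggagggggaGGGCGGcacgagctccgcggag
Timd4, + strand, chr11:46810549-46810798: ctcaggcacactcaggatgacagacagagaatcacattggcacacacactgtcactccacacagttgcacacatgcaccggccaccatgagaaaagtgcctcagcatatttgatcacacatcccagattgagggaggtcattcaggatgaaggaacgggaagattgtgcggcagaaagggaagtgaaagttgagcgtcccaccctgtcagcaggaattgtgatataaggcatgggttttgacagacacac
Searched on both strands, the GC box was found 3 times in the Mertk promoter, 4 times in Mfge8, 5 times in Pros1, 3 times in Tyro3, once in Axl and not in Timd4. It occurred in 32.7% of 32851 promoters of the same length. Of the hypoxia-response cores ACGTG and GCGTG, 1 or the other of which 38.6% of promoters hold, the 9 members had GCGTG once each in Mfge8 and Tyro3 and ACGTG in none. GAGGAA (23.3% of promoters) was found once each in Axl, Mfge8 and Stab1, and neither TGANTCA, the AP-1 site (6.75%), nor TATAAA (12.4%) was found in any member. The GC content of these windows was 73.2% at Tyro3, 65.2% at Mfge8, 63.6% at Mertk and 50.0% at Timd4, so the GC-rich Tyro3 promoter had no peak while the Mertk and Mfge8 promoters did.

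The lists held 13333 and 9910 peaks in normoxic monoculture, 24370 and 26339 in hypoxic monoculture, 21790 and 21826 in normoxic co-culture, and 29658 and 21633 in hypoxic co-culture. The common background, solved from each peak's fold and −log10 p, ranged from 0.758 to 1.45 fragments per position, and at that background 6 to 8 fragments at a summit were enough for a peak. A missing peak therefore means that no summit passed the threshold of that library, and it does not by itself show closed chromatin. Of 12 microglia and macrophage marker genes, 6 and 7 had a peak within 10 kb in normoxic monoculture and 9 to 12 in the other libraries. Of 12 glioma and glial marker genes, none had a peak in normoxic monoculture, 2 and 2 in hypoxic monoculture, 5 and 3 in normoxic co-culture, and 7 and 5 in hypoxic co-culture. Olig2, Sox9, Fabp7 and Ptprz1 had none in any library. The shorter lists, those of normoxic monoculture, stood apart from the rest, and every gain against them is also a comparison with lists of fewer peaks.

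Peaks at the members were fewest in normoxic monoculture. Of the 28 regions, 6 and 4 had a peak in its replicates (mean 5 ± 1.41, SD, n = 2), against 16 and 14 in hypoxic monoculture (15 ± 1.41), 14 and 9 in normoxic co-culture (11.5 ± 3.54) and 22 and 15 in hypoxic co-culture (18.5 ± 4.95). The same held for all regions, of which 30.8% and 23.1% had a peak in normoxic monoculture, 57.3% and 62.3% in hypoxic monoculture, 51.7% and 51.5% in normoxic co-culture and 70.7% and 51.5% in hypoxic co-culture. The member shares were 21.4% and 14.3% in normoxic monoculture, 57.1% and 50.0% in hypoxic monoculture, 50.0% and 32.1% in normoxic co-culture and 78.6% and 53.6% in hypoxic co-culture. They were lowest in the shortest lists and highest in the longest. Among lists of like length, co-culture normoxia replicate 2, with 21826 peaks, had 32.1%. Co-culture normoxia replicate 1, with 21790, had 50.0%, and co-culture hypoxia replicate 2, with 21633, had 53.6%. The part of list length in these shares was not tested. Over all 8 libraries, 3 member regions (10.7%) had a peak in every library, against 15.6% of all regions, and 9 (32.1%) in 1 library, against 26.7%. Of those 9 regions, 4 were found in co-culture hypoxia replicate 1, which had the longest list.

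**Figure D1:**
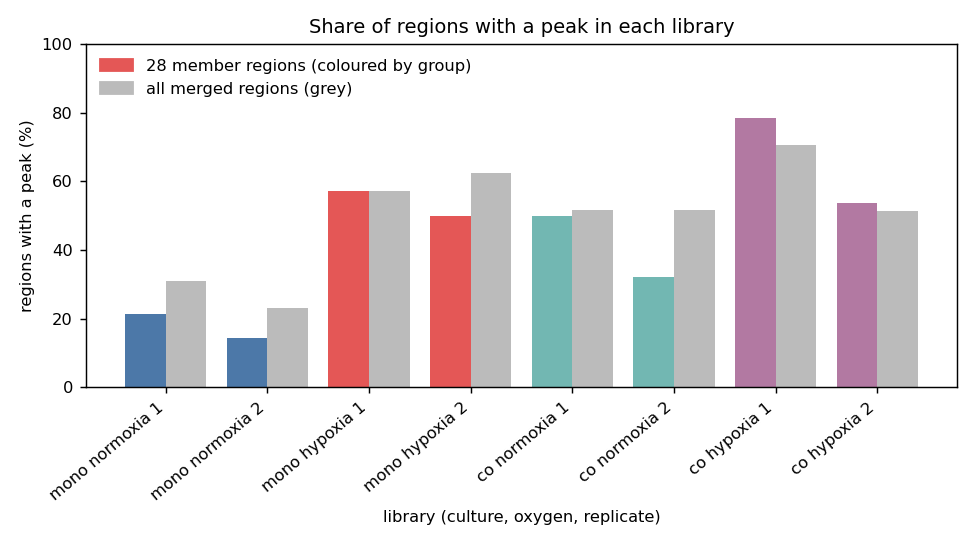
Percent of regions with a peak (y axis) in each library (x axis), with coloured bars for the 28 member regions and grey bars for all 40784 merged regions. Both bars are lowest in the normoxic monoculture libraries (21.4% and 14.3% of member regions) and highest in co-culture hypoxia replicate 1 (78.6% and 70.7%).

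Of the 28 regions, 20 overlapped a member's gene body, and 4 of these lay over the member's own promoter. Of the 8 outside, 5 lay over the promoter of a neighbour (Hnrnpul1 beside Axl, Rpap1 beside Tyro3, Arl13b beside Pros1, Smim4 and Nt5dc2 beside Stab1). The annotation used here gives gene bodies and start sites but no exons, so exonic and intronic positions were not distinguished. At the 10 kb limit, the farthest regions inside were those of Tyro3 (9.78 kb, 2 libraries, percentiles up to 9.36), Stab1 (9.61 kb, 6 libraries, up to 90.9) and Gas6 (9.43 kb, 6 libraries, up to 46.3). The nearest outside were 10.9 kb from Mfge8 (1 library, percentile 39.9), 10.98 kb from Mertk (5 libraries, up to 26.5) and 11.2 kb from Pros1 (2 libraries, up to 49.1).

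**Figure D2:**
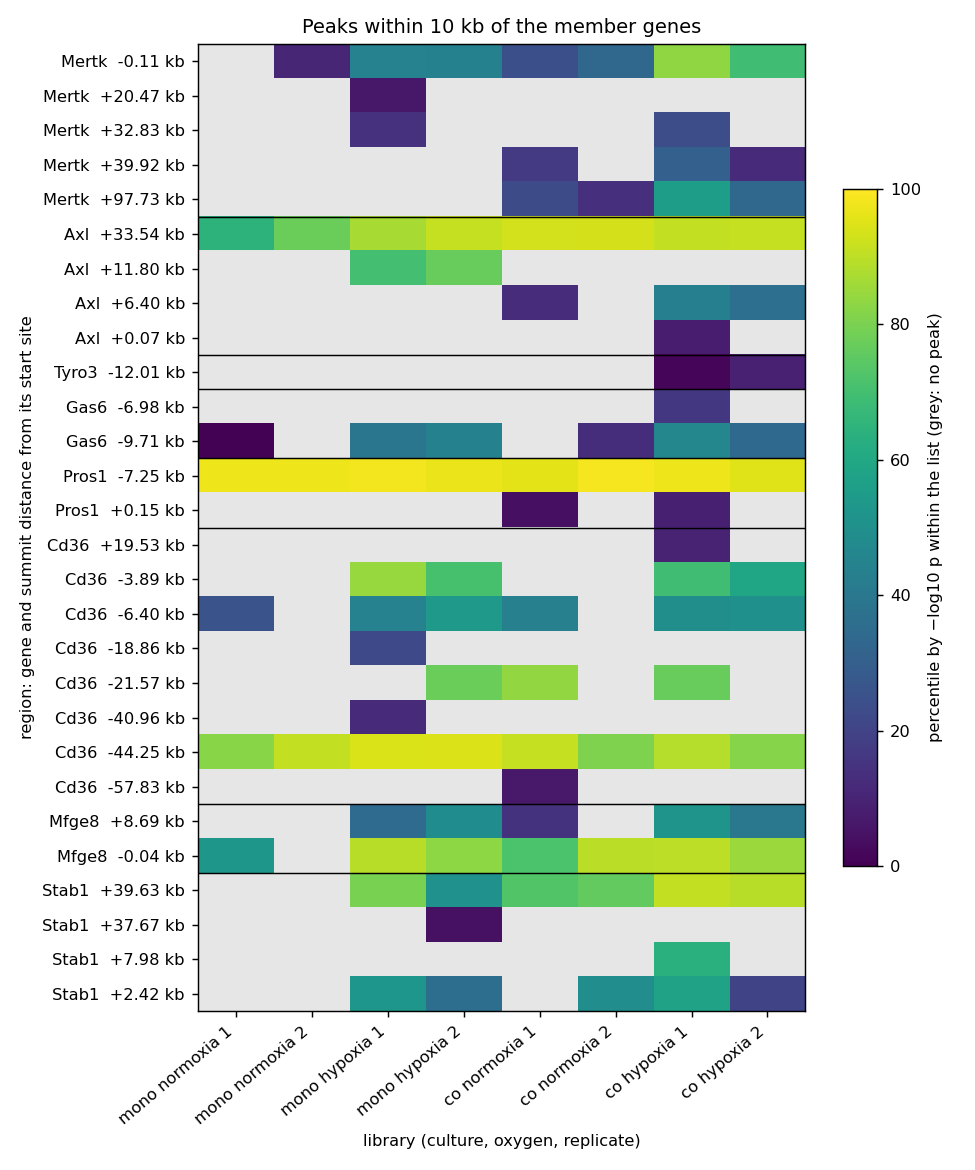
Percentile by −log10 p within its list (colour) of the best peak in each of the 28 member regions (rows, with the summit's distance from the gene's start site in kb) for the 8 libraries (columns), grey where no peak was called. The regions at Axl +33.54 kb, Pros1 −7.25 kb and Cd36 −44.25 kb are filled in all 8 columns, while Cd36 −3.89 kb is filled in the 4 hypoxic columns and Mertk +97.7 kb in the 4 co-culture columns.

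Mertk, the TAM receptor most tied to engulfment by macrophages, had 5 regions, all touching its gene body on chromosome 2 (128698915 to 128803162). Its promoter region, chr2:128698198-128699337 with the highest summit 111 bp upstream of the start site, also overlaps the promoter of Gm39931. It had no peak in monoculture normoxia replicate 1 and a peak at the 10.7th percentile in replicate 2. The percentiles were 44.2 and 43.9 in hypoxic monoculture, 24.6 and 33.8 in normoxic co-culture, and 83.4 and 69.2 in hypoxic co-culture. Hypoxic co-culture thus held the highest ranks, above all other libraries. The estimated fragments at the summit were 9 in the single normoxic monoculture peak, 23 and 23 in hypoxic monoculture, 16 and 19 in normoxic co-culture and 58 and 40 in hypoxic co-culture. In lists cut to the 9910 peaks with the highest −log10 p in each library, so that lists had equal number, this promoter was kept in both hypoxic co-culture libraries and in monoculture normoxia replicate 2, whose list is itself the shortest and was not cut.

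A region near the 3′ end of Mertk, chr2:128796349-128796998, 97.7 kb downstream of the start site, was called in each of the 4 co-culture libraries and in no monoculture library. Its percentiles were 22.9 and 13.4 in normoxic co-culture and 56.1 and 33.8 in hypoxic co-culture, with 12, 11, 30 and 16 estimated fragments. The peaks were weak, and none was among the 9910 highest of its list. A further region 39.9 kb downstream (chr2:128738537-128739217) had peaks at the 17.0th percentile in co-culture normoxia replicate 1 and at the 30.8th and 11.7th in hypoxic co-culture. It had none in monoculture. The 2 other regions of Mertk, 20.5 and 32.8 kb downstream, had peaks in 1 and 2 libraries. Over the 12 glioma and glial marker genes there were 7, 3, 10 and 5 regions with a peak in the co-culture libraries, against 0, 0, 3 and 2 in monoculture, and their part in the co-culture peaks of Mertk and Axl was not tested.

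Axl, the TAM receptor induced by inflammatory signals, is on the minus strand of chromosome 7 (25756500 to 25788924) and had 4 regions. The region open in all 8 libraries, chr7:25754692-25756304, lies 0.196 kb beyond the 3′ end of Axl and over the promoter of its neighbour Hnrnpul1. Its percentiles ran from 64.5 and 77.4 in normoxic monoculture to 93.3 and 93.4 in normoxic co-culture. Inside Axl, 11.8 kb downstream of the start site, chr7:25776735-25777115 had a peak in both hypoxic monoculture libraries and in no other. The percentiles were 70.3 and 76.6 and the summits held 31 and 37 estimated fragments, where 10 and 10 would have passed. This region also stood among the 9910 highest peaks of both libraries.

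A separate Axl region, 6.40 kb downstream of the start site (chr7:25781658-25782448), had the opposite distribution in hypoxia. It had a peak in both hypoxic co-culture libraries (43.1st and 36.5th percentile, 31 and 22 fragments) and in co-culture normoxia replicate 1 (12.5th percentile, 13 fragments), and in no monoculture library. The Axl promoter had a single peak, in co-culture hypoxia replicate 1, at the 8.00th percentile with 12 fragments. The hypoxic monoculture and hypoxic co-culture libraries thus had peaks at different places within Axl. The third TAM receptor, Tyro3, on chromosome 2 (119797740 to 119818104), had no peak in its gene body or at its promoter. Its 1 region (chr2:119787314-119787964), over the Rpap1 promoter, had a peak in both hypoxic co-culture libraries at the 1.47th and 9.36th percentile, the lowest among the 9 member regions gained or lost in a contrast. After the lists were scaled to equal background coverage, 1 of these 2 peaks was left.

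**Figure D3:**
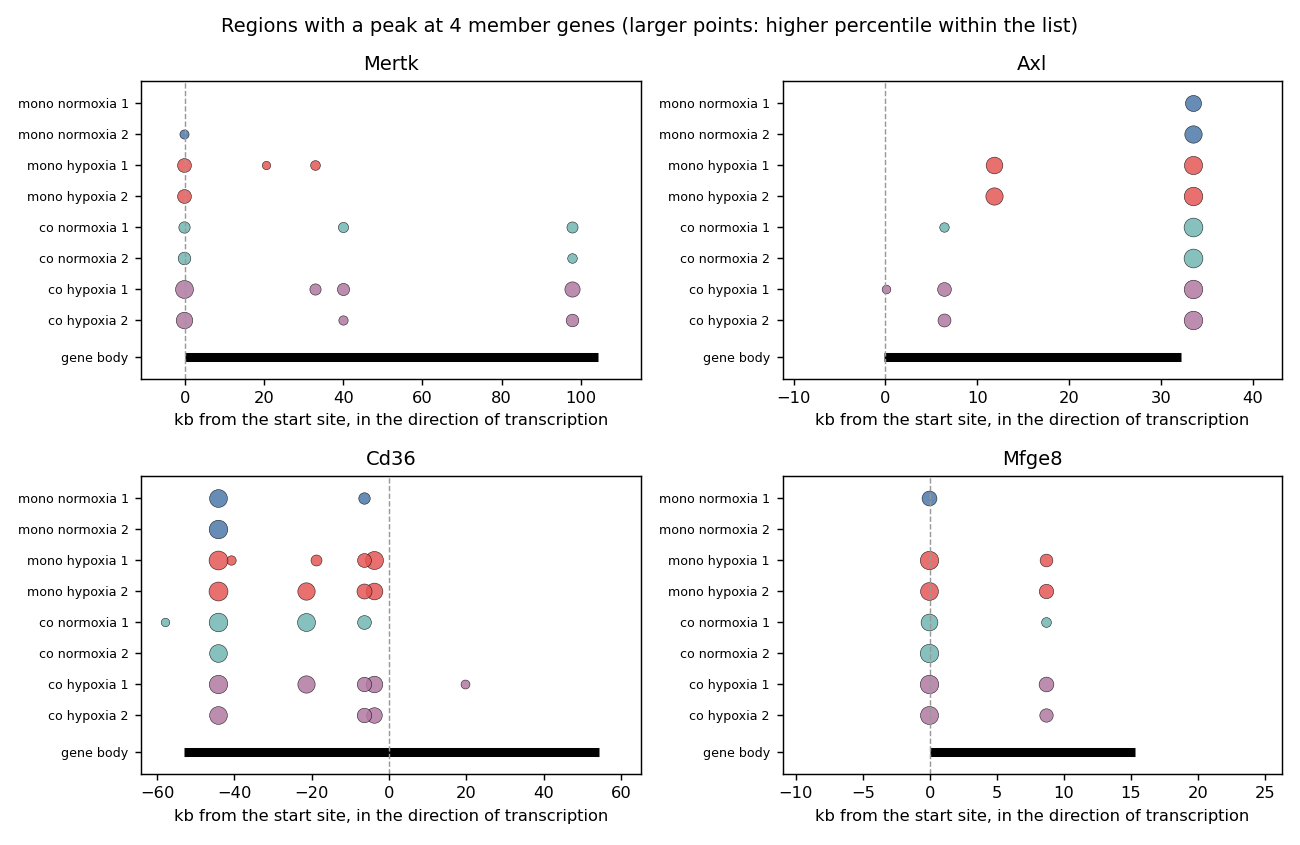
Position of the regions with a peak at Mertk, Axl, Cd36 and Mfge8, as the distance of the highest summit from the annotated start site in kb (x axis), for each of the 8 libraries (rows, coloured by group), with larger points for higher percentiles and the gene body as a black bar. The Axl region at 11.8 kb has points in the hypoxic monoculture rows and in no others, and the Mertk region at 97.7 kb in the co-culture rows and in no others.

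Of the ligand genes, neither had a strong peak of its own. Gas6, the ligand shared by the TAM receptors, is on the minus strand of chromosome 8 (13465374 to 13494535), and its gene body and promoter had no peak in any library. A region 9.71 kb upstream of its start site (chr8:13503963-13504552) had percentiles of 39.2 and 44.0 in hypoxic monoculture and of 46.3 and 34.4 in hypoxic co-culture. In normoxia it had a peak in 1 library of each culture, at the 0.615th percentile in monoculture and at the 13.1st in co-culture. All 4 hypoxic libraries thus ranked it higher than either normoxic library that had it. Pros1, which encodes protein S, is on chromosome 16 (62854307 to 62929346). A region over the Arl13b promoter, 7.25 kb upstream of the Pros1 start site (chr16:62846569-62847451), was among the strongest peaks of every list. It ranked from the 95.0th to the 98.6th percentile, and this rank differed little between the groups. A rank so near the top has little room to move. The estimated fragments ran from 58 in monoculture normoxia replicate 1 to 138 in co-culture normoxia replicate 2. At the Pros1 promoter itself (chr16:62854228-62854762) there were weak peaks in the first replicates of both co-culture groups, at the 4.16th and 8.70th percentile.

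Cd36 had the most regions of the members, 8, of which 7 overlapped its gene body on the minus strand of chromosome 5 (17781690 to 17888959). A region 3.89 kb upstream of the start site given by the promoter table and inside the annotated gene body (chr5:17839305-17839952), was called in each of the 4 hypoxic libraries and in no normoxic one. The percentiles were 84.6 and 70.9 in hypoxic monoculture and 69.3 and 59.0 in hypoxic co-culture. The summits held 60, 54, 54 and 40 estimated fragments in the same order. All 4 peaks were among the 9910 highest of their lists, and all 4 passed a threshold of 5 on the −log10 q scale. It was the only member region that divided hypoxia from normoxia in both cultures, which 2.08% of all regions did (0.0196% in the reverse direction). Without either normoxic co-culture library, a looser rule with no share over all regions computed, 2 member regions did so.

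The depth behind the missing normoxic peaks was read in part from the next Cd36 region, 6.40 kb upstream (chr5:17842169-17842668). Each hypoxic library had it (percentiles 44.3, 54.2, 49.3 and 50.1), as did the first replicate of each normoxic group (25.5 and 43.4). Its local background in those normoxic libraries was 2.81 and 4.83 fragments, at which 11 and 15 fragments would have passed the threshold. The background coverage was 0.758 and 1.03 in normoxic and 1.45 and 1.41 in hypoxic monoculture, and 1.07 and 1.38 in normoxic and 1.42 and 1.17 in hypoxic co-culture. It was thus lower in normoxia in monoculture and overlapped in co-culture, and the part of depth in the missing normoxic peaks was not tested. After all lists were scaled to the lowest coverage, the region 3.89 kb upstream had its peak in the 4 hypoxic libraries. Scaling takes peaks away and adds none, so it cannot show whether a normoxic peak was missed. The scaled lists were still unequal in monoculture, with 22945 and 24965 peaks in hypoxia and 13332 and 9513 in normoxia. At Ptprc, which encodes the sort marker CD45, 2 regions also divided hypoxia from normoxia in both cultures (the stronger at percentiles from 65.8 to 78.5), and the part of this in the Cd36 result was not tested. A region 44.3 kb upstream (chr5:17879483-17880528) was open throughout, from the 80.8th to the 94.7th percentile. It was the only region inside a member's gene body with a peak in all 8 libraries, and its percentiles in hypoxia and normoxia overlapped. A region 21.6 kb upstream (chr5:17857348-17857934) had strong peaks in monoculture hypoxia replicate 2, co-culture normoxia replicate 1 and co-culture hypoxia replicate 1 (77.4, 83.7 and 76.7), so the replicates of 3 groups did not match there. The 4 other Cd36 regions were each found in 1 library, at no more than the 22.0th percentile. The local background at the 25 Cd36 peaks was a median of 4.67 times the common background of their library. The median was 2.30 over all peaks and 1.76 over 102 peaks from 10 kb to 1 Mb outside the gene. The fragment counts at Cd36 thus stood on a raised background. This was not particular to Cd36, as the medians at the other members with a peak ran from 1.17 (Tyro3) to 4.53 (Pros1).

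**Figure D4:**
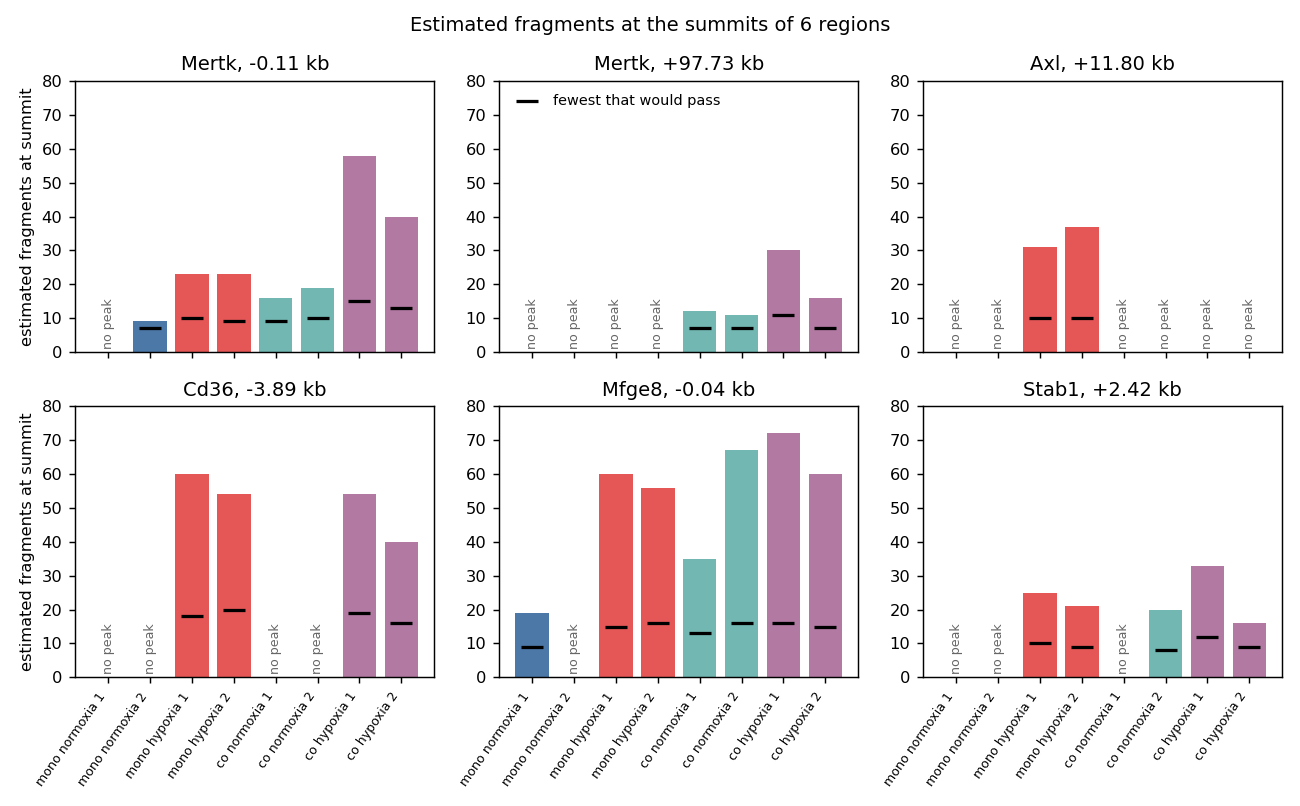
Estimated fragments at the summit (y axis) of 6 member regions in the 8 libraries (x axis, coloured by group), with a black dash at the fewest that would have passed the threshold at that peak's local background. At Cd36 −3.89 kb the 4 hypoxic libraries stand at 60, 54, 54 and 40 with dashes between 16 and 20, and at the Mertk promoter the hypoxic co-culture libraries stand at 58 and 40.

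Mfge8, the bridging protein that links dying cells to integrins, is on the minus strand of chromosome 7 (79133768 to 79149060). Its promoter region (chr7:79148557-79149469, highest summit 42 bp upstream of the start site) had a peak in 7 libraries and none in monoculture normoxia replicate 2. Its percentiles were 52.8 in monoculture normoxia replicate 1, 89.2 and 82.8 in hypoxic monoculture, 71.6 and 89.5 in normoxic co-culture and 90.1 and 84.9 in hypoxic co-culture. All 7 peaks were also among the 9910 highest, and in these 7 libraries it ranked above the other members' own promoters, while in monoculture normoxia replicate 2 the Mertk promoter had a peak and this one had none. Inside Mfge8, 8.69 kb downstream (chr7:79140263-79141026), a weaker region was called in the 4 hypoxic libraries (percentiles 34.8, 48.7, 51.9 and 40.0) and in co-culture normoxia replicate 1 (14.5).

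Stab1, a scavenger receptor of macrophages that binds phosphatidylserine, is on the minus strand of chromosome 14 (31139017 to 31168651) and its promoter had no peak. A region 2.43 kb downstream of the start site (chr14:31166057-31166647) had a peak in 5 libraries, at percentiles of 52.7 and 36.3 in hypoxic monoculture, 49.0 in co-culture normoxia replicate 2 and 57.5 and 20.4 in hypoxic co-culture. All 4 hypoxic libraries and 1 normoxic library thus had it. A region beyond the 3′ end, over the promoter of Smim4 (chr14:31128668-31129411), 39.6 kb from the Stab1 start site, was called in every library outside normoxic monoculture, and its percentiles were highest in hypoxic co-culture, 90.9 and 89.1. Timd4, a phosphatidylserine receptor of resident macrophages, on chromosome 11 (46810786 to 46844333), had no peak within 10 kb in any library, and the nearest region lay 329.8 kb away.

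Counted over the members by contrast, gains outnumbered losses, as they did over all regions. Gained means a peak in 2 of 2 libraries of the named condition and in 0 of 2 of its comparator, and lost means the reverse. With hypoxia in monoculture 5 of 28 regions were gained (Axl 11.8 kb, Cd36 3.89 kb upstream, Mfge8 8.69 kb, and Stab1 2.43 and 39.6 kb), which is 17.9%, and none was lost. Over all regions 17.7% were gained and 0.179% lost, so the members' share was that of the background. In co-culture, hypoxia gained 2 regions (Cd36 3.89 kb upstream and Tyro3) and lost none, against 6.09% and 2.05% of all regions. Without 1 library, which loosens the rule by construction, the gains with hypoxia in monoculture were 8 (without monoculture normoxia replicate 1) and 9 (without monoculture hypoxia replicate 2). In co-culture they were 6 and 4 without replicate 1 and 2 of normoxia and 7 without hypoxia replicate 2. In the same culture 1 region was lost without normoxia replicate 2. No share over all regions was computed under this looser rule, so these counts have no background beside them. Lists of equal number held 19558 of the merged regions, 9 of them member regions, and shares for these lists are of those 19558. There the gains with hypoxia were 2 in each culture, the Cd36 region in both, with Axl 11.8 kb in monoculture and the Mertk promoter in co-culture, against 7.48% and 5.51% of the 19558 regions, and no member region was lost, against 5.2% and 5.79%. The Cd36 region alone divided hypoxia from normoxia in both cultures in these lists, as 1.08% of the 19558 did (0.91% in reverse).

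In normoxia, co-culture gained 2 regions (Mertk 97.7 kb and Stab1 39.6 kb) and lost none, against 12.5% and 0.181% of all regions. With co-culture in hypoxia 4 were gained (Mertk 39.9 and 97.7 kb, Axl 6.40 kb and Tyro3) and 1 was lost (Axl 11.8 kb), which is 14.3% and 3.57%, against 5.83% and 3.76% of all regions. Of these 4 gains, 3 lay inside Mertk or Axl, and the region near Tyro3 lay outside its gene body, over the Rpap1 promoter. Without co-culture normoxia replicate 2 the gains in normoxia were 8, and without co-culture hypoxia replicate 2 those in hypoxia were 9. Here too, leaving out a library loosens the rule, and no share over all regions was computed for such counts. The loss became 2 without monoculture hypoxia replicate 1 and 4 without replicate 2. Mertk 97.7 kb was the only member region that divided co-culture from monoculture at both oxygen levels, which 1.98% of all regions did (0.027% in the reverse direction), and without co-culture normoxia replicate 2 there were 3. In lists of equal number the members gained 1 region with co-culture in normoxia (Stab1 39.6 kb, against 4.93% of the 19558 regions gained and 2.98% lost) and 1 in hypoxia (the Mertk promoter, against 7.48%), lost 1 in hypoxia (Axl 11.8 kb, 7.1%), and had none dividing the cultures at both oxygen levels (1.03%, and 0.506% in reverse).

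**Figure D5:**
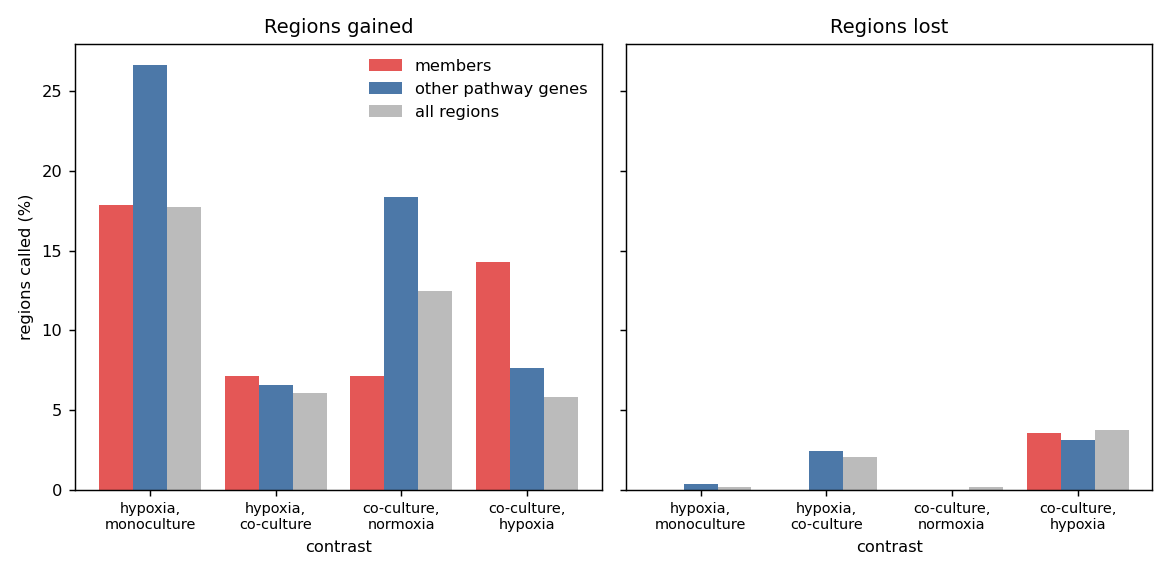
Percent of regions gained (left) and lost (right) in the 4 contrasts (x axis) for the 28 member regions, the 289 regions of 87 other efferocytosis genes and all regions. With hypoxia in monoculture the member and overall bars stand at 17.9% and 17.7%, below the 26.6% of the other efferocytosis genes.

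The other genes of the pathway gave a wider view. Of 87 further efferocytosis genes in 8 lists by role, 78 had a peak within 10 kb in at least 1 library, with 289 regions, and none of these was a member region. The genes without any were Havcr1 and Timd2 (uptake receptors of the Timd4 family), C1qa, C1qb and C1qc (the subunits of complement C1q), Tub and Tulp1, Abcg1 and Cd24a. With hypoxia in monoculture 77 of the 289 regions (26.6%) were gained and 1 (0.346%) lost, and with hypoxia in co-culture 19 (6.57%) and 7 (2.42%). With co-culture in normoxia 53 (18.3%) were gained and none lost, and with co-culture in hypoxia 22 (7.61%) and 9 (3.11%). Over all regions the gains in the same order were 17.7%, 6.09%, 12.5% and 5.83%. The losses over all regions were 0.179%, 2.05%, 0.181% and 3.76%. In equal-number lists, which held 138 of these regions, the gains in the same order were 13, 15, 8 and 12 and the losses 6, 8, 4 and 8. As shares of the 138 the gains were 9.42%, 10.9%, 5.80% and 8.70%, against 7.48%, 5.51%, 4.93% and 7.48% of the 19558 regions. The losses were 4.35%, 5.80%, 2.90% and 5.80%, against 5.2%, 5.79%, 2.98% and 7.1%. Leaving out 1 library loosens the rule, and no share over all regions was computed for it. With the full lists this step moved counts by over 1.5 times as follows. Gains with hypoxia in co-culture were 33, 32 and 53 without co-culture normoxia replicate 1, normoxia replicate 2 and hypoxia replicate 2. Gains with co-culture were 82 in normoxia without the first normoxic monoculture library, 94 without co-culture normoxia replicate 2, and 48 in hypoxia without co-culture hypoxia replicate 2. Losses with hypoxia were 3 and 8 in monoculture without its normoxic replicates 1 and 2, and 13, 25 and 24 in co-culture without normoxia replicate 1, normoxia replicate 2 and hypoxia replicate 1. Losses with co-culture in normoxia were 3, 10, 2 and 2 without each of the monoculture and then the co-culture libraries, and in hypoxia 29, 15 and 42 without monoculture replicate 1, monoculture replicate 2 and co-culture replicate 1.

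By role, the gains with hypoxia in monoculture were 26 of 77 regions at other uptake receptors, 25 of 91 at the engulfment machinery, 6 of 16 at opsonins and bridging proteins and 7 of 37 at genes of cargo metabolism, where 17.7% of all regions were gained. In co-culture they were 5, 3, 2 and 7, where 6.09% of all regions were gained, and the losses were 1, 3, 0 and 0, where 2.05% of all regions were lost. These counts are from the full lists, and in lists of equal number the whole pathway gained 13 regions in monoculture in place of 77. At the smaller lists the gains in monoculture were 4 of 17 regions at receptors for find-me signals, 3 of 20 at phagosome maturation, 3 of 11 at do-not-eat-me signals and 3 of 20 at genes of TAM receptor shedding and feedback, and 0, 1, 1 and 0 in co-culture, where the losses were 1, 1, 1 and 0. In monoculture the 1 loss of the pathway was at phagosome maturation. Hypoxia was divided from normoxia in both cultures by 7 of the 289 regions (2.42%, against 2.08% of all regions), and co-culture from monoculture at both oxygen levels by 6 (2.08%, against 1.98%), shares near the background in the full lists. In lists of equal number these were 4 of 138 regions (2.90%, against 1.08% of the 19558) and 1 of 138 (0.725%, against 1.03%). The regions that divided all hypoxic from all normoxic libraries lay at Cd300lf (percentiles up to 65.0), an uptake receptor, at Megf10 (2 regions, the stronger from 75.5 to 91.5), an engulfment receptor of glia, and at Anxa1 (40.8 to 82.1), a phosphatidylserine-binding protein. Others lay at Elmo1 (41.1 to 70.6), part of the complex that activates Rac, at Ptk2 (24.6 to 67.3), the focal adhesion kinase, and at Slc2a1 (48.1 to 73.8), a glucose transporter and known hypoxia target. Regions that divided co-culture from monoculture lay at Lrp1 (17.1 to 49.3), an uptake receptor for calreticulin-marked cells, Thbs1 (41.1 to 52.8), which encodes the bridging protein thrombospondin, Gulp1 (34.1 to 70.1), an engulfment adaptor, Ptk2 (65.0 to 92.9), Rubcn (14.5 to 68.3), which acts in LC3-associated phagocytosis, and Rxrb (8.45 to 61.7), a nuclear receptor. The Ptk2 regions of the oxygen and culture divisions were different ones.

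Compared with 15209 protein-coding genes, those closest to a member were those with the smallest mean absolute difference in best percentile over the 8 libraries, with no peak set to 0. For Mertk they were Id3 (4.37 percentile points), Dip2a (5.36) and Numbl (5.64). For Mfge8 they were Ccdc92b and Cluh (3.83 each) and Anks3 (3.89), and for Gas6 they were F10 and F7 (2.80 each) and Arhgef2 (4.09). The genes closest to Stab1 (Nt5dc2, Smim4 and Pbrm1) shared a region with it, as Rpap1 did with Tyro3. The next closest to Tyro3 were Trim9 (0.118) and Zhx2 (0.249), which share no region with it, in a comparison where Tyro3 itself stood at 0 in 6 of 8 libraries. List lengths and depth are common to all of these genes.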

How the data were processed

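The files used were 8 peak lists, 1 per library, with replicates called separately. Per the submitters' processing notes, tools were Trimmomatic 0.36, HISAT2 2.1.0, Picard, SAMtools, deepTools and MACS2 2.1.1.2, with build mm10; parameters and the Tn5 shift are not given in the sources used here. The authors deposited for each peak a fold (a ratio of summit to local background), a −log10 p, a −log10 q (lowest just above 2) and a score, 10 times the −log10 q in nearly all peaks. All are relative to the library itself, so ranks from lists of different length show no change by themselves.

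Peaks overlapping by at least 1 bp were merged, and regions within 10 kb of a gene body (RefSeq, GRCm38.p6, the assembly of mm10) were assigned to it. All list symbols matched. Fragments at a summit (n) and background (b) were solved from fold = (n + 1)/(b + 1) and the Poisson p, for 99.8% to 99.9% of peaks (tolerance 0.001, −log10 p under 250), and checked on simulated data. These estimates assume that model, and cover counting only. Read totals were not used here. Groups of 2 libraries cannot pass an exact permutation test at the usual threshold, and none was run. Replicates are labelled biological.

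Named are all members, their regions gained or lost in a contrast, each member's highest ranked region, and other pathway genes with a region dividing 4 libraries from 4. Members and lists were chosen with earlier results of these data known. Alternatives were lists of equal number (9910 peaks), lists scaled to the lowest background coverage, a −log10 q of at least 5, windows of 250 bp on each side of summits, distances of 2 and 50 kb, no peaks wider than 10 kb, ranks by fold, and leaving out each library. Python 3.11.15, numpy 2.4.6, pandas 2.3.3, scipy 1.17.1 and matplotlib 3.10.9 were used.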

Additional observations from a re-analysis of the deposited data

Results flagged for a closer look

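A region within 10 kb of Itgb5, an integrin subunit that takes part in uptake through Mfge8 (chromosome 16, 33891665 to 33892240), went opposite ways in the cultures. It had a peak in 4 libraries, both of hypoxic monoculture (percentiles 19.6 and 32.9) and both of normoxic co-culture (1.51 and 33.2), and in none of normoxic monoculture or hypoxic co-culture. It was thus gained with hypoxia in monoculture and lost with hypoxia in co-culture, and gained with co-culture in normoxia and lost with co-culture in hypoxia. These calls rest in part on the weak peak at the 1.51st percentile. The share of all regions with this pattern was not computed, and the difference was not tested.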

How the results depend on the processing

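No paired analysis was possible because the counts come from no test, and replicate numbers enter no fit. Using 250 bp either side of each summit and the removal of peaks wider than 10 kb left all 12 member counts within 1.5 times. In lists of equal number, member regions gained with hypoxia in monoculture fell to 2, gained with co-culture to 1 in normoxia, 1 in hypoxia and 0 at both oxygen levels; fewer peaks enter by construction. Gains with hypoxia in co-culture were 1 with lists scaled to the lowest coverage, 1 with a −log10 q of at least 5 and 1 within 2 kb. Within 2 kb, gains with co-culture in normoxia were 1. Within 50 kb, gains with hypoxia were 8 in monoculture and 2 in both cultures. In equal-number lists the other pathway genes gained 13 regions with hypoxia in monoculture, 8 with co-culture in normoxia and 12 in hypoxia, and lost 6 and 4 in the first 2 of these.

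Leaving out 1 library gave member gains of 6 to 9 with hypoxia in monoculture, 2 to 7 in co-culture and 1 to 2 in both, and of 3 to 8 with co-culture in normoxia, 4 to 9 in hypoxia and 1 to 3 at both levels. Losses were 0 to 1 with hypoxia in co-culture and 1 to 4 with co-culture in hypoxia. For the other pathway genes, gains were 87 to 113 with hypoxia in monoculture, 27 to 53 in co-culture, 62 to 94 with co-culture in normoxia and 26 to 48 in hypoxia. Losses were 1 to 8, 9 to 25, 2 to 10 and 12 to 42 in the same order. Shares over all regions were not computed with 1 library left out. The best percentile of a member moved by more than the spread between replicates in 14 of the 28 gene and group values above 0 when ranked by fold and in 9 of 28 within 2 kb; the 8 other values were 0, with no peak to move. Depth limits what a missing peak means: at the common background, summits under 6 to 8 fragments were not called.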
